A study of Homo sapiens with 72 samples.

Results

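The transcripts of 42 RNA-binding proteins that gather in stress granules beside G3BP were followed through 11 comparisons made by the authors. The genes form a named list of granule proteins and G3BP partners and were matched by the symbols of the tables (41 members) or a table of gene names (1 member). All 42 were found among the 61541 genes of each table, and each had an adjusted p in every table, so none was lost to a filter on low values. What is described is the level of the mRNAs that encode these proteins; neither the proteins nor the granules were measured here.

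Stress granules are bodies of mRNA and protein that form in the cytoplasm when translation initiation stops, for example after sodium arsenite, which sets off phosphorylation of the initiation factor eIF2. G3BP1 and its paralog G3BP2 drive their assembly: the NTF2-like domain pairs the protein and holds the partners CAPRIN1, which favours condensation, and USP10, which opposes it. Other members enter the granule bound to mRNA, and several of them (TIA1, ATXN2, FMR1, TARDBP) are studied in neurological disease.

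The series held 72 libraries, of which 24 in 11 groups entered these tables. RNA immunoprecipitation (RIP) used FlpIn 293 Trex cells, a derivative of a human embryonic kidney line, that carried a stable FLAG-G3BP1 gene induced with 1 ug/mL tetracycline for 24 h; 3 precipitates were set against 3 input libraries. RNA-seq used U2OS cells, a human osteosarcoma line, with 2 libraries per group. The first experiment comprised untreated wild-type cells, untreated G3BP1/2 knockout cells, and knockout cells given a G3BP1 transgene by Lipofectamine transfection 24 h earlier. The second comprised G3BP1/2 knockout cells, knockout cells transfected for 24 h with WT G3BP1 (wild-type rescue) and knockout cells transfected for 24 h with G3BP1 lacking NTF2 (NTF2-deletion rescue), each without and with 200 uM sodium arsenite for 2 h. The labels name no transfection for the knockout groups, so the transgene and the transfection cannot be told apart. Whether the knockout was a single clone is not given in the sources used here, and the loss of G3BP1/2 cannot be told apart from other differences between the 2 U2OS populations. The labels do not say that the libraries of a group came from separate cultures, so every p-value measures a spread between libraries that may be technical.

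A library of the first experiment had 38.6 to 52.5 M reads in genes, one of the second 10.8 to 27.8 M. Knockout cells still had G3BP1 mRNA, less than wild-type cells, at -0.56 in the authors' deposited table of the 2 groups, and G3BP2 stood at -0.36. G3BP1 counted 19198 and 18253 normalised reads in the wild-type libraries, 12744 and 12718 in knockout and 20272 and 20562 in the rescue of the first experiment. In the second experiment it counted 3870 and 3940 in untreated knockout and 599602 to 991486 over the 8 rescue libraries, where it made up 3.83% to 6.22% of gene reads. The rescues of the 2 experiments thus differed widely in G3BP1 mRNA. The mesenchymal genes VIM, COL1A1, COL5A1, FN1, CDH2 and RUNX2 were counted in every U2OS library and TWIST1 was at 0 in every library of the first experiment. The labels call U2OS epithelial, but CDH1 had at most 38.7 normalised reads and ESRP1 at most 15.1, while EPCAM had 339 to 558 in the first experiment. Summed over the 3 blood markers, normalised reads were 43.0 to 44.9 in wild type, 1.78 to 2.35 in knockout and 21.8 to 35.9 in rescue there, nearly all of PTPRC, with LYZ at no more than 2.09 and CD3E at 0; their part in the member results was not tested. Of the genes read for the kidney line, NEFL had a base mean (the mean normalised reads over a table's libraries) of 1078 in RIP, PAX2 of 45.8 and NEFM of 4.87. Summed over the 7 mesenchymal markers, the first experiment had 337635 and 359267 normalised reads in wild type, 115384 and 121107 in knockout and 212054 and 221729 in rescue. Knockout cells and wild-type cells of the first experiment therefore differed in the markers of their own cell type, and the part of this in the member results was not tested.

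Most member transcripts made up less of the RNA in G3BP1 immunoprecipitates than in the input. In the authors' deposited table, 9 of 42 members were called higher in the precipitate (24.7% of all tested genes were), 31 lower (31.4% of all tested genes), and 2 were not called, where called means an adjusted p under 0.05. The member median was -0.86 on the log2 scale in the authors' deposited table, against 0.12 over all genes whose base mean reached 100. Most members are highly counted, and the contrast was wider among such genes: of 2800 genes whose base mean reached 1000, 60.0% were called higher and 28.8% lower, with a median of 0.60. With 3 precipitates against 3 inputs and no values per library used here, the spread is known only through the authors' standard errors.

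The direct partners of G3BP1 and the core scaffolds were all on the depleted side, 8 of 8. CAPRIN1 (ENSG00000135387) stood at -0.48 (SE 0.11), UBAP2L (ENSG00000143569), a scaffold that nucleates granules, at -0.56 (SE 0.10), and USP10 (ENSG00000103194), a deubiquitinase, at -0.89 (SE 0.13) in the authors' deposited table. The proline-rich PRRC2 proteins, which act in translation initiation, had the lowest values of these 8 members. They stood at -3.18 for PRRC2C (SE 0.09), -3.08 for PRRC2B (SE 0.15) and -2.50 for PRRC2A (SE 0.09) in the authors' deposited table. PRRC2C was thus 9.06-fold lower in the precipitate than in the input, whereas CAPRIN1 was 1.39-fold lower. UBAP2, the paralog of UBAP2L, stood at -1.98 and NUFIP2, a partner of the fragile X protein, at -1.61 in the authors' deposited table.

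Repressors that bind 3′ untranslated regions and proteins of the poly(A) tail were depleted as well. All 4 repressors were called lower, from -1.0 for PUM2 to -2.61 (SE 0.17) for RC3H1 (ENSG00000135870) in the authors' deposited table; RC3H1 and RC3H2 encode the Roquins, which mark mRNAs for decay. All 5 poly(A)-binding and La-related members were called lower, with LARP1, a regulator of mRNAs with a terminal oligopyrimidine tract, at -2.17, LARP4B at -2.09, LARP4 at -1.48, PABPC1 at -1.11 and PABPC4 at -0.49 in the authors' deposited table. Both ataxin-2 family members were called lower by nearly the same amount, ATXN2 at -0.94 and ATXN2L at -0.95 in the authors' deposited table.

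The proteins that coat mRNA were the opposite case. All 3 cold-shock and coat members were called higher: YBX3 (ENSG00000060138) at 1.16 (SE 0.10), SERBP1 at 0.56 (SE 0.09) and YBX1 (ENSG00000065978) at 0.45 (SE 0.13) in the authors' deposited table. YBX1 and YBX3 package mRNA through their cold-shock domain, and SERBP1 binds mRNA and ribosomes. OGFOD1 (ENSG00000087263), a hydroxylase of a ribosomal protein, was the only other member above 1, at 1.09 (SE 0.16) in the authors' deposited table. The other 5 called higher were TAF15 at 0.50, DDX1 at 0.43, STAU1 at 0.41, FXR1 at 0.35 and EWSR1 at 0.32 in the authors' deposited table.

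Several families were split between the 2 sides. The helicase DDX1 was called higher while DDX3X stood at -0.93, DHX36 at -1.15 and MOV10 at -1.56 in the authors' deposited table. STAU1 was called higher and its paralog STAU2 lower, at -0.52 in the authors' deposited table. FXR1 was called higher, but FMR1 at -0.70 and FXR2 at -0.82 were called lower in the authors' deposited table. TIA1 (-0.11, adjusted p 0.451) and TIAL1 (0.08, adjusted p 0.574), paired prion-like proteins, were the 2 members not called in the authors' deposited table. Each split is of calls; differences between paralogs were not tested.

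Gene length moved with these values. The length used is the span of the RefSeq gene on the chromosome, introns included, and not the length of the mRNA. Over the 42 members the RIP log2 fold change and this length had a Spearman rho of -0.35. Over 10064 genes whose base mean reached 100 it was -0.51. These are descriptions across genes, which share libraries and are not replicates. The part of length in the member values was not tested. Subtracting the median of genes whose base mean reached 100 (0.12) left 7 members higher and 31 lower. Dividing the authors' statistics by their own robust spread of 7.07, a far stricter reading in which 24 of 22856 genes stay called, kept only PRRC2C among the members.

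**Figure D1:**
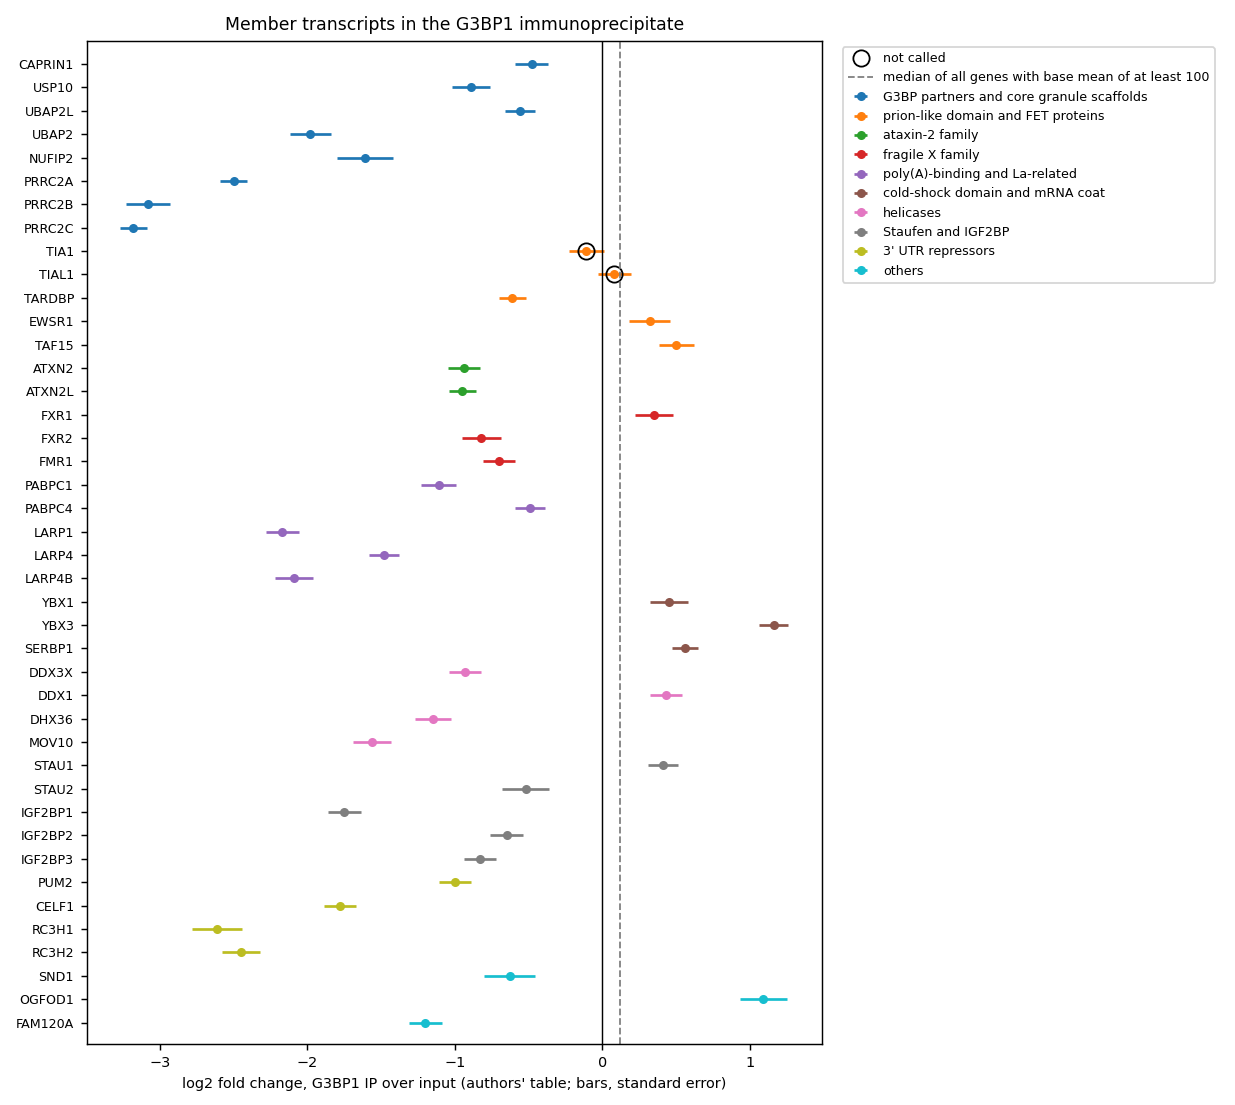
RIP values of the 42 members: the x axis is the authors' log2 fold change of G3BP1 precipitate over input, bars are standard errors, colours are member groups, rings mark TIA1 and TIAL1, which were not called, and the dashed line is the median of all genes whose base mean reached 100 (0.12). Members run from -3.18 for PRRC2C to 1.16 for YBX3, with 31 called lower and 9 higher.

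The first experiment compared knockout with wild-type cells, the question being the effect of losing G3BP1/2. The members moved in both directions: 13 of 42 were called higher in knockout (18.4% of all tested genes) and 16 lower (19.4%) in the authors' deposited table. Their median was -0.03 and that of all genes whose base mean reached 100 was -0.00 in the authors' deposited table. Nearly all members are highly counted here, and among 7921 genes whose base mean reached 1000 the shares were 30.3% and 33.8%, so the members' counts lie near this background.

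The large changes belonged to the IGF2BP family, which binds and stabilises mRNAs and of which IGF2BP1 and IGF2BP3 are mainly fetal genes that tumours can express. IGF2BP1 (ENSG00000159217, chromosome 17) had 303 and 313 normalised reads in the wild-type libraries, 5570 and 5455 in knockout and 3018 and 2883 in rescue. IGF2BP3 (ENSG00000136231, chromosome 7) had 47.1 and 43.9 in wild type, 916 and 924 in knockout and 618 and 589 in rescue. Neither gene's groups overlapped. Knockout and wild type did not overlap in most of the 42 members, with 18 higher and 19 lower in knockout. For both IGF2BP1 and IGF2BP3 the rescue lay between knockout and wild type. IGF2BP2 (ENSG00000073792, chromosome 3) ran the other way, with 10724 and 10227 in wild type, 7745 and 7571 in knockout and 11123 and 11640 in rescue. The authors' deposited table of knockout against wild type gave 4.12 for IGF2BP1 (SE 0.09) and 4.12 for IGF2BP3 (SE 0.19), and -0.45 for IGF2BP2 (SE 0.05). As ratios of group means this was 17.88-fold higher for IGF2BP1 and 20.23-fold higher for IGF2BP3.

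**Figure D2:**
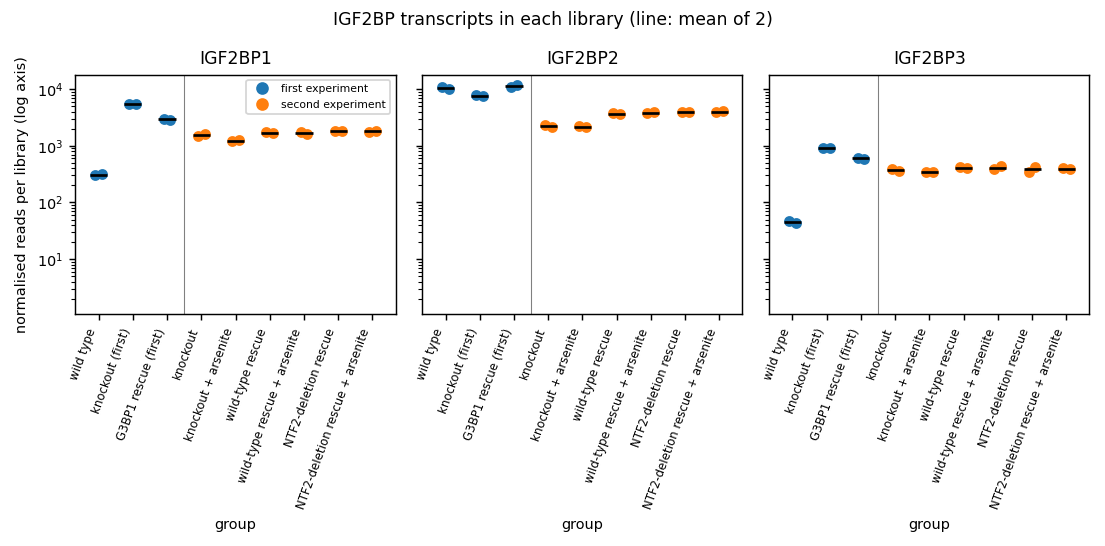
Normalised reads of IGF2BP1, IGF2BP2 and IGF2BP3 in each library (points, log y axis; line, mean of 2; blue, first experiment; orange, second experiment; the 2 were normalised separately). In the first experiment IGF2BP1 goes from 303 and 313 in wild type to 5570 and 5455 in knockout, while in the second it stays between 1213 and 1861 in all 12 libraries.

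Other called members changed far less. ATXN2L stood at 0.72, MOV10, a helicase that restrains retroelements, at 0.61, FXR2 at 0.45 and TIAL1 at 0.42 in the authors' deposited table. DDX1 fell most, with 8714 and 8377 normalised reads in wild type and 5275 and 5166 in knockout, a value of -0.71 (SE 0.06) in the authors' deposited table. STAU1, which binds double-stranded RNA, fell by 0.38, CELF1 by 0.37 and TARDBP by 0.35 in the authors' deposited table. Of the G3BP partners, UBAP2L was called higher at 0.37, while CAPRIN1 (-0.09) and USP10 (0.10) were not called in the authors' deposited table. YBX1 was called higher, at 0.20 in the authors' deposited table.

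Against the transfected rescue of the same experiment, more members were called lower in knockout than higher. In the authors' deposited table, 7 of 42 members were called higher in knockout (16.1% of all tested genes) and 24 lower (21.5%), with a median of -0.21 against -0.05 for all genes whose base mean reached 100. Among highly counted genes (base mean of at least 1000), 23.9% were higher and 41.8% lower. All 5 poly(A)-binding and La-related members and all 3 coat members were among the lower ones. DDX1 stood at -0.80 (SE 0.05), IGF2BP2 at -0.58, OGFOD1 at -0.55, YBX3 at -0.51, YBX1 at -0.47, CAPRIN1 at -0.23 and USP10 at -0.22 in the authors' deposited table. UBAP2L, at 0.01 in the authors' deposited table, was not called. Higher in knockout than in rescue were IGF2BP1 (0.88), IGF2BP3 (0.58), MOV10 (0.57), TIA1 (0.48), ATXN2L (0.29), PRRC2B (0.28) and PRRC2A (0.15) in the authors' deposited table.

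Wild-type cells and rescue also differed in many members. Wild type against rescue had 4 members called higher (15.2% of all tested genes) and 24 lower (20.4%) in the authors' deposited table, with a median of -0.15 against -0.04 for all genes whose base mean reached 100. Of the genes whose base mean reached 1000, 23.2% were higher and 39.7% lower. IGF2BP3 stood at -3.28, IGF2BP1 at -3.19 and YBX1 at -0.69 in the authors' deposited table, and PRRC2B at 0.45, TIA1 at 0.25, ATXN2 at 0.23 and CELF1 at 0.14 were the 4 called higher in wild type. USP10 (-0.34), UBAP2L (-0.37) and CAPRIN1 (-0.16) were called lower in wild type than in rescue in the authors' deposited table. The authors' fold changes had been drawn toward 0 by their method, here also for IGF2BP3, whose mean reads were 13.27-fold lower in wild type (-3.73 on the log2 scale). For YBX1 the libraries show the pattern directly: 48390 and 46361 normalised reads in wild type, 56722 and 52606 in knockout, and 72119 and 78698 in rescue, the highest of the 3 groups without overlap. Of all 42 members, 31 were lower in wild type than in rescue without overlap, and 27 were lower in knockout. In the other direction, 6 and 11 were higher.

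Of the 29 members called between knockout and wild type, the mean of the rescue lay between the 2 groups for 13 (44.8%), past wild type for 12 (41.4%) and past knockout for 4 (13.8%). Over the 8019 called genes whose base mean reached 100 these shares were 61.8%, 21.1% and 17.1%. Rescue of MOV10 came close to wild type: 4608 and 4538 normalised reads in wild type, 7052 and 6996 in knockout and 4681 and 4694 in rescue. For DDX1 the rescue had 8731 and 9369, both above the wild-type libraries and not called against them. The 4 past knockout were ATXN2, PABPC1, YBX1 and PRRC2B.

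The second experiment asked what WT and NTF2-deletion G3BP1 do in knockout cells. Member transcripts were higher with both. With WT G3BP1 the authors' deposited table had 31 of 42 members called higher (23.0% of all tested genes) and 3 lower (19.1%), with a median of 0.45 against 0.18 for all genes whose base mean reached 100. With the NTF2-deletion form, 33 were called higher (22.8%) and 3 lower (18.7%), with a median of 0.47 against 0.17 in the authors' deposited table. Among highly counted genes (base mean of at least 1000) 57.9% and 57.8% were called higher, against 73.8% and 78.6% of the members. Both comparisons share the same 2 knockout libraries. With the authors' statistics divided by their robust spread, 8 members stayed higher and 1 lower with WT G3BP1, and 10 and 1 with the NTF2-deletion form. The summed mesenchymal markers were lower in the rescues, at 40614 and 41391 normalised reads in knockout, 30289 and 30743 with WT G3BP1 and 31873 and 32809 with the NTF2-deletion form. The markers were split: VIM was higher in both rescues, at 17049 to 17883 in knockout and 21974 to 22315 with WT G3BP1. RUNX2, COL1A1, COL5A1, FN1 and CDH2 were lower in both. COL1A1 went from 10024 to 10278 in knockout to 3356 to 3414 with WT G3BP1, and COL5A1 from 7136 to 7273 to 1361 to 1413. The part of these markers in the member results was not tested.

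PABPC4 (ENSG00000090621), a cytoplasmic poly(A)-binding protein, had 3165 and 3199 normalised reads in knockout, 6743 and 6963 with WT G3BP1 and 6963 and 6856 in NTF2-deletion rescue. USP10 had 1316 and 1402 in knockout, 2765 and 2587 with WT G3BP1 and 2585 and 2566 in NTF2-deletion rescue. In neither gene did a rescue library overlap knockout, and the 2 rescues lay together. Such separation was common: without overlap, 37 of 42 members were higher and 5 lower with WT G3BP1. With the NTF2-deletion form 33 were higher and 5 lower. The same count over all genes is not given here. PABPC4 stood at 1.13 (SE 0.06) and 1.14 (SE 0.06), USP10 at 0.99 (SE 0.08) and 0.94 (SE 0.08), and OGFOD1 at 1.00 and 1.07 in the authors' deposited tables of the 2 rescues. LARP4 followed at 1.04 and 0.99, YBX3 at 0.97 and 1.07, SERBP1 at 0.95 and 1.01, LARP1 at 0.95 and 0.94 and DDX1 at 0.95 and 0.92 in the authors' deposited tables.

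All 5 poly(A)-binding and La-related members and all 3 coat members were called higher in both rescues, as were 7 of 8 partners and scaffolds; PRRC2B, at 0.05 and -0.02 in the authors' deposited tables, was the exception. CAPRIN1 had 4368 and 4525 normalised reads in knockout, 5986 and 5985 with WT G3BP1 and 6151 and 6180 in NTF2-deletion rescue. That is a smaller step than for USP10, with 0.45 (SE 0.05) and 0.49 (SE 0.06) in the authors' deposited tables, and UBAP2L stood at 0.32 and 0.37. YBX1 stood at 0.75 (SE 0.11) and 0.93 (SE 0.06) in the authors' deposited tables; 1 of its knockout libraries had 11010 normalised reads and the other 12874.

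The same 3 members were called lower with either form. TIA1 (ENSG00000116001), which silences translation and seeds granules through its prion-like domain, had 1806 and 1599 normalised reads in knockout, 768 and 721 with WT G3BP1 and 687 and 731 in NTF2-deletion rescue. Its paralog TIAL1 rose, so the pair moved apart: -1.16 (SE 0.11) and -1.23 (SE 0.11) for TIA1 and 0.35 and 0.42 for TIAL1 in the authors' deposited tables. MOV10 had 2099 and 2116 in knockout, 1142 and 1139 with WT G3BP1 and 1247 and 1082 in NTF2-deletion rescue, at -0.86 and -0.83 in the authors' deposited tables. STAU2 had 682 and 601 in knockout, 351 and 397 with WT G3BP1 and 342 and 346 in NTF2-deletion rescue, at -0.75 and -0.86 in the authors' deposited tables, while STAU1 stood at 0.41 and 0.48. None of these 3 genes had a rescue library inside the knockout range. That was so for most members: 37 higher and 5 lower with WT G3BP1, and 33 and 5 with the NTF2-deletion form.

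Over all tested genes the median was -0.03 with WT G3BP1 and -0.02 with the NTF2-deletion form. The median of genes whose base mean reached 100 lay above 0, at 0.18 and 0.17. With that median subtracted, 27 members were called higher and 5 lower with WT G3BP1, and 26 and 4 with the NTF2-deletion form; over all called genes the share called higher went from 54.7% to 41.0% and from 54.9% to 41.3%. In wild-type rescue 1 called member, PRRC2A, changed sign (0.17 in the authors' deposited table). In bulk RNA a smaller number of cells with an mRNA and less of it per cell cannot be told apart, which matters for transfected cultures. IGF2BP1 and IGF2BP3 moved little between knockout and these rescues: IGF2BP1 at 0.17 and 0.30 and IGF2BP3 at 0.18 and 0.07 in the authors' deposited tables, of which the 0.30 alone was called. Their large difference in the first experiment was between knockout and wild type, and the second experiment had no wild-type cells. In the first experiment both were also called higher in knockout than in rescue.

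The rescues of the 2 experiments share no library and could be set side by side. All 24 members that were higher in rescue than in knockout in the first experiment were also higher in wild-type rescue of the second, which is 100% of the first list and 77.4% of the 31 in the second. Over all genes, 2942 were higher in both, 59.7% of the 4925 in the first experiment and 61.6% of the 4777 in the second. In wild-type rescue of the second, 73.8% of all members were called higher, and 57.9% of genes whose base mean reached 1000. MOV10 and TIA1 were lower in rescue in both experiments, 28.6% of the 7 in the first and 66.7% of the 3 in the second. ATXN2L and PRRC2A were called lower in the first and higher in the second; over all genes, 7.50% of those lower in the first were higher in the second. Transfection was present in both rescues and absent from the labels of both knockout groups.

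**Figure D3:**
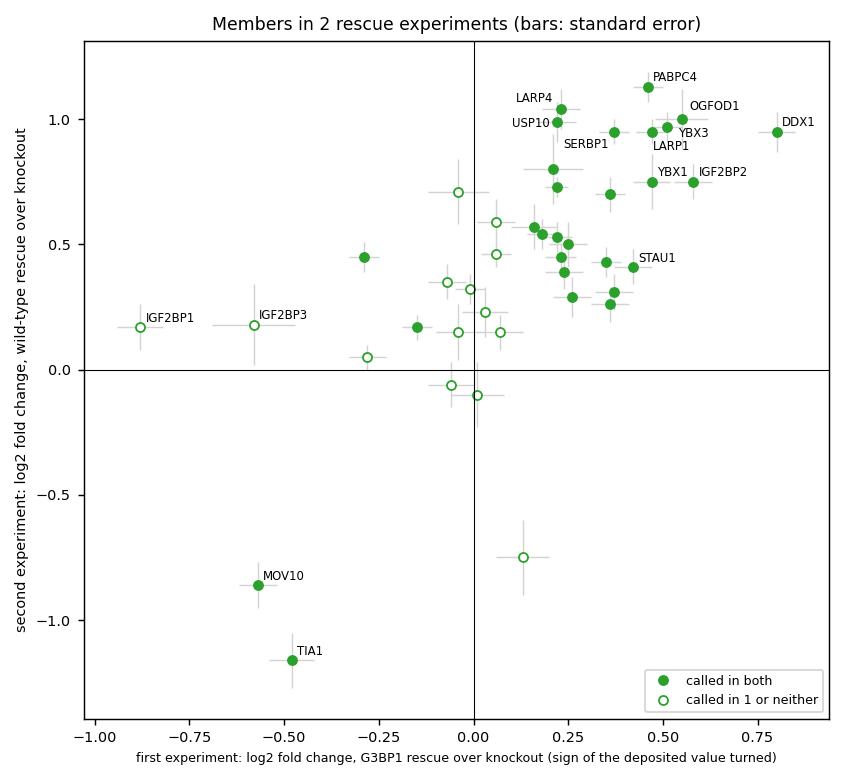
Each point is a member: the x axis is the authors' log2 fold change of G3BP1 rescue over knockout in the first experiment (the deposited sign turned), the y axis that of wild-type rescue over knockout in the second, bars are standard errors and filled points were called in both. The 24 members higher in both fill the upper right, TIA1 and MOV10 lie in the lower left, and IGF2BP1 at -0.88 on the x axis and 0.17 on the y axis lies apart.

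The calls in the RIP of the kidney line were set beside those of the rescues in U2OS. Of the 9 RIP-higher members, 8 were higher in rescue in the first experiment and 8 in wild-type rescue of the second (88.9% each, TAF15 being the exception in both). Of the 31 RIP-lower members, 16 (51.6%) and 22 (71.0%) were. Among all genes whose base mean reached 100 in these tables, the shares were 52.9% and 49.1% of 4044 RIP-higher genes, and 27.2% and 38.4% of 3628 RIP-lower genes. These are descriptions across genes from different cell lines and were not tested.

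After 2 h of arsenite, 8, 9 and 6 of 42 members were called in knockout, wild-type rescue and NTF2-deletion rescue in the authors' deposited tables. In knockout cells 1 of 42 members was called higher (8.56% of all tested genes) and 7 lower (10.9%) in the authors' deposited table. With WT G3BP1 arsenite called 2 members higher (8.18%) and 7 lower (12.2%), and with the NTF2-deletion form 2 higher (2.43%) and 4 lower (6.14%), in the authors' deposited tables. The member medians were -0.05, 0.02 and 0.02 against -0.01, 0.01 and 0.01 for all genes whose base mean reached 100 in the authors' deposited tables. In the order of the 3 backgrounds, 2.38%, 4.76% and 4.76% of the members were called higher and 16.7%, 16.7% and 9.52% lower. Of genes whose base mean reached 1000, 18.6%, 15.8% and 4.78% were called higher and 27.1%, 21.5% and 14.8% lower. Against these highly counted genes, members were called less often, except that higher calls in NTF2-deletion rescue were level (4.76% and 4.78%). Against all tested genes, members were called lower more often in each background. They were called higher less often in knockout and wild-type rescue and more often in NTF2-deletion rescue. By limma on the recovered reads, 4 members were called higher and 14 lower in knockout, where 14.1% and 16.7% of all genes were. The treatment itself registered in each background: the authors' deposited tables gave 2.84 in knockout, 0.83 with WT G3BP1 and 0.64 with the NTF2-deletion form for PPP1R15A, the stress-induced phosphatase subunit that reverses eIF2 phosphorylation. For BAG3, a chaperone partner that clears granules, the authors' deposited tables gave 1.44, 0.62 and 0.55 in the same order. PPP1R15A was already higher without arsenite in the rescues than in knockout, by 2.87 and 2.64 in the authors' deposited tables; the part of this in the member responses was not tested.

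Of all 42 members, 3 were called lower by arsenite in all 3 backgrounds and none was called higher in all 3; over all genes 524 were lower and 195 higher in all 3. SND1 (ENSG00000197157), a nuclease and transcription coactivator, had 2808 and 2710 normalised reads in knockout and 2035 and 1958 with arsenite. It had 3624 and 3518 in wild-type rescue and 3028 and 3035 with arsenite, and 3958 and 3609 in NTF2-deletion rescue and 3212 and 3147 with arsenite. Every arsenite library of SND1 lay below its untreated pair, as for 23, 9 and 10 members in knockout, wild-type rescue and NTF2-deletion rescue. In the same order, 9, 19 and 18 members lay wholly above. The SND1 values were -0.45 (SE 0.08), -0.25 (SE 0.04) and -0.24 (SE 0.06) in the authors' deposited tables. PRRC2A (ENSG00000204469) fell by 0.33, 0.21 and 0.23 in the authors' deposited tables, from 9300 and 9982 to 8006 and 7196 normalised reads in knockout.

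DDX3X (ENSG00000215301), a helicase that helps ribosomes through structured leaders, was the third of these and fell most in knockout. It had 3515 and 3709 normalised reads in knockout and 2402 and 2677 with arsenite. In wild-type rescue it had 4819 and 4812 without and 4547 and 4435 with arsenite. In NTF2-deletion rescue it had 4667 and 4861 without and 4311 and 4020 with arsenite. In each background the arsenite libraries lay below the untreated ones, and those of knockout were the lowest of the 12. The authors' deposited tables gave -0.49 (SE 0.08), -0.12 (SE 0.04) and -0.19 (SE 0.05).

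TAF15, a FET-family RNA-binding protein, was called in knockout alone: 2797 and 2899 normalised reads without and 2265 and 2176 with arsenite. In wild-type rescue it had 3143 and 3067 without and 3169 and 3188 with arsenite, and in NTF2-deletion rescue 3381 and 3307 without and 2954 and 3102 with arsenite. The values were -0.34 (SE 0.08), 0.02 and -0.14 in the authors' deposited tables, the last not called. Also called lower in knockout were IGF2BP1 (-0.29), CAPRIN1 (-0.20) and SERBP1 (-0.20) in the authors' deposited table. ATXN2L was called lower in both rescues (-0.21 and -0.18), and MOV10 (-0.20), UBAP2L (-0.12) and PRRC2B (-0.11) in wild-type rescue, in the authors' deposited tables.

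Fewer members rose. RC3H1 had 1041 and 1051 normalised reads in knockout and 1369 and 1483 with arsenite, and 1240 and 1177 in wild-type rescue and 1484 and 1476 with arsenite. It stood at 0.45 (SE 0.10) and 0.27 (SE 0.06), both called, and at 0.18, not called, in NTF2-deletion rescue in the authors' deposited tables. NUFIP2 stood at 0.25 in knockout (not called), 0.25 with WT G3BP1 and 0.29 with the NTF2-deletion form (both called) in the authors' deposited tables. PABPC1 was called in NTF2-deletion rescue alone, at 0.16, with 31460 and 31927 normalised reads without and 35214 and 35494 with arsenite, in the authors' deposited table. USP10 (0.12, 0.07 and 0.07) and YBX1 (-0.05, 0.05 and 0.05) were not called in any background in the authors' deposited tables.

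**Figure D4:**
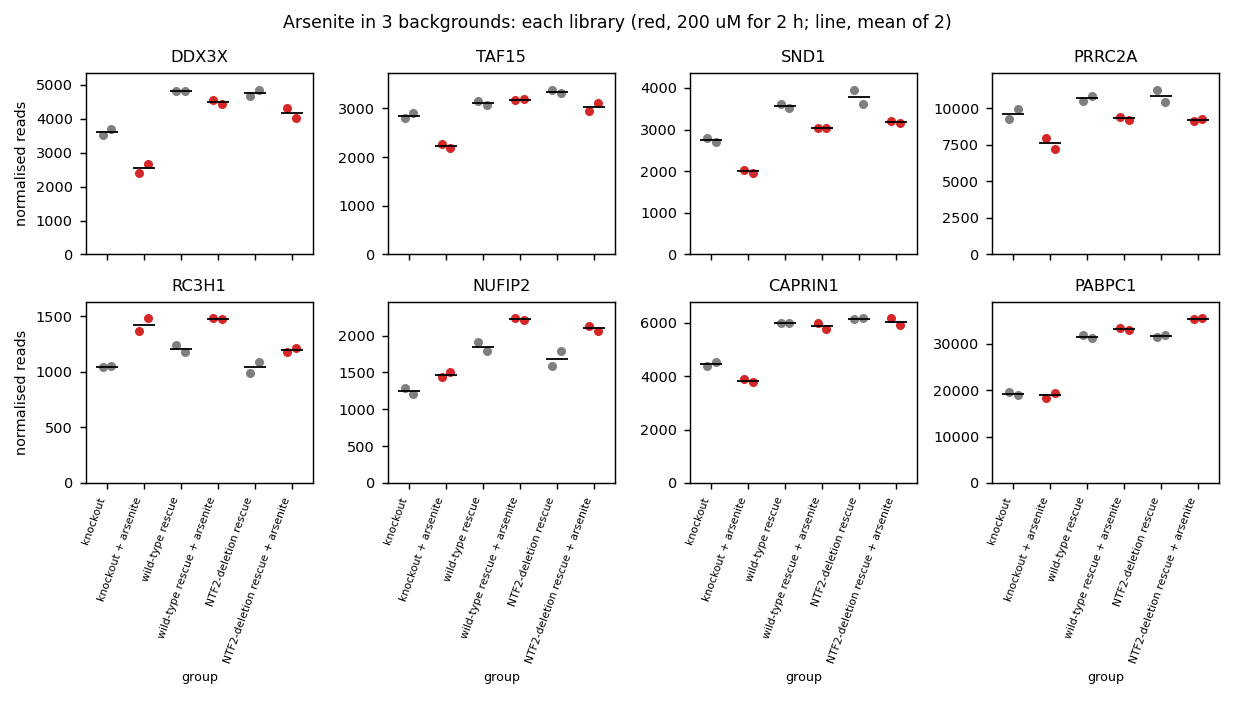
Normalised reads of 8 members in each library of the second experiment (grey, untreated; red, 200 uM arsenite for 2 h; line, mean of 2; y axes start at 0). DDX3X goes from 3515 and 3709 to 2402 and 2677 in knockout, against 4819 and 4812 to 4547 and 4435 in wild-type rescue; RC3H1 and NUFIP2 are higher with arsenite in each background.

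The sequences just before a transcript start of 4 arsenite-responsive members are shown: the 3 called lower in every background and NUFIP2, called higher in both rescues. RC3H1, also called higher in 2 backgrounds, and ATXN2L, called lower in 2, are not shown. They are the 250 bases before a transcript start in RefSeq on GRCh38.p14, 5′ to 3′ on the strand of the gene, with matches to the motifs below in capitals. DDX3X lies at chrX:41333912-41334161 on the plus strand (the gene has 3 listed starts), SND1 at chr7:127651944-127652193 on the plus strand, PRRC2A at chr6:31620465-31620714 on the plus strand and NUFIP2 at chr17:29294149-29294398 on the minus strand. The DDX3X window precedes a later start and lies inside the span of the gene, which begins at base 41333308.
DDX3X: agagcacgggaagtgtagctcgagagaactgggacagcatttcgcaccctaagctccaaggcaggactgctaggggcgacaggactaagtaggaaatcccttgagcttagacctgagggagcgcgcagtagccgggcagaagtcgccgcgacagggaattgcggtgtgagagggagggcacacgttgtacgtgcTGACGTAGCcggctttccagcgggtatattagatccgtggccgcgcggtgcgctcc
SND1: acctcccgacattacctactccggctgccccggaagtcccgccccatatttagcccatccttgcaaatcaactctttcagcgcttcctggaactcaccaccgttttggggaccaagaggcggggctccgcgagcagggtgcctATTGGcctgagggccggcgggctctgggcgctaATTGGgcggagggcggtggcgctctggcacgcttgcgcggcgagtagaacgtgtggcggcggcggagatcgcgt
PRRC2A: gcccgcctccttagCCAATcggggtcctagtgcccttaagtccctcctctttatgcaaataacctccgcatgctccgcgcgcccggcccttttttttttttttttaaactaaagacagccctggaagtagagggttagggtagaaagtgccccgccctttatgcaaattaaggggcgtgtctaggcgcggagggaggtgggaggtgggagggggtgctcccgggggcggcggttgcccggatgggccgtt
NUFIP2: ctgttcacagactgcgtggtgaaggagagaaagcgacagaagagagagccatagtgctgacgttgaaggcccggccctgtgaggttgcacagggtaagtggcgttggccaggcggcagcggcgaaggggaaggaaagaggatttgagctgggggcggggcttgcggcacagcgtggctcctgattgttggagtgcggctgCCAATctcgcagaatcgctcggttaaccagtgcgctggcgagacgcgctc

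The capitals mark TGACGTAGC in DDX3X, 56 bases before the start, a match to the core of antioxidant response elements, and the CCAAT box or its reverse ATTGG in the other 3: 107 and 74 bases before the start in SND1, 236 in PRRC2A and 50 in NUFIP2. Each motif was searched on both strands of 35116 RefSeq windows, 36 of the 42 members having one. TGACNNNGC was in 10.9% of all windows and in any window of 3 of the 36 members (UBAP2, DDX3X, FAM120A), and CCAAT in 32.0% and in 16 of 36. The heat-shock element forms GAANNTTC and TTCNNGAA were in 5.78% and 6.62% of windows and in 2 (PRRC2B, PUM2) and 4 (TIAL1, FXR1, STAU1, CELF1) members. The AP-1 letters TGANTCA were in 6.57% and in 2 members (UBAP2L, IGF2BP2), and TGATGNAA, bound by C/EBP-ATF pairs, in 3.14% and in IGF2BP2 alone. A member with several listed starts counts if any of its windows matches, and the window with most matches is printed, which favours a match. A match is a description of these letters and not a site in use.

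Whether the arsenite response differed between backgrounds was tested on the difference of 2 deposited fold changes, over genes whose base mean reached 10 in each of the 2 tables. Wild-type rescue and knockout, which share no library, differed in 4.51% of 15648 genes and in 2 of 42 members. DDX3X differed by 0.37 (SE 0.09, 95% interval 0.20 to 0.54, adjusted p 0.00152) and TAF15 by 0.36 (SE 0.09, 95% interval 0.18 to 0.53, adjusted p 0.00231), both less negative with WT G3BP1. Between knockout and the NTF2-deletion rescue 7.12% of genes differed and 1 member, DDX3X, by 0.30 (SE 0.10, 95% interval 0.11 to 0.49, adjusted p 0.0302). This last difference was not called with no filter on low values, nor at an adjusted p under 0.01. The 2 tests share the knockout libraries. A limma fit on the recovered reads, an alternative added after the data were seen, called 8 members in each difference, all with a higher response in the rescue, DDX3X and TAF15 among them both times. Over all genes it called 5.27% with a higher and 3.89% with a lower response in wild-type rescue than in knockout. For NTF2-deletion rescue against knockout the shares were 6.88% and 4.87%. DDX3X was called in 8 of 8 limma fits that left out 1 library, in both differences, and TAF15 in 8 of 8 against wild-type rescue but 4 of 8 against NTF2-deletion rescue.

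No member told the 2 forms of G3BP1 apart by the same test. Their arsenite responses differed in 0.328% of genes and 0 of 42 members (2 at an unadjusted p under 0.05 and 0 by limma). The smallest p belonged to PABPC1, at -0.10 (95% interval -0.18 to -0.02, adjusted p 0.900), and the next to TAF15, at 0.15 (95% interval 0.01 to 0.29, adjusted p 1.000). Without arsenite the rescues differed in 0.0185% of genes and 0 members (0 at an unadjusted p under 0.05), by a test that is strict because both tables share the knockout libraries. The interval of the difference was -0.20 to 0.11 for CAPRIN1, -0.18 to 0.28 for USP10, -0.22 to 0.12 for UBAP2L and -0.43 to 0.07 for YBX1. Compared directly by limma, 2 members were called: YBX1 was lower by 0.17 with WT G3BP1 and DHX36, a helicase of G-quadruplexes, higher by 0.23 (limma adjusted p 0.00988 and 0.0247). Over all genes limma called 128 higher and 51 lower of 19007. With 1 library left out, YBX1 was called in 1 of 4 fits and DHX36 in 0 of 4.

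With arsenite the rescues differed in 0.0785% of genes and 0 members (1 at an unadjusted p under 0.05, RC3H1, at 0.33, 95% interval 0.07 to 0.59, adjusted p 1.000). Here limma called 3: RC3H1 higher by 0.30 with WT G3BP1 and YBX1 and PABPC1 lower by 0.16 and 0.10 (limma adjusted p 0.00106, 0.00500 and 0.0226). Over all genes it called 335 higher and 209 lower. With 1 library left out, RC3H1 was called in 3 of 4 fits, YBX1 in 2 of 4 and PABPC1 in 0 of 4. YBX1 was thus lower with WT than with NTF2-deletion G3BP1 in both states by limma: 19580 and 20098 normalised reads against 21855 and 22908 without arsenite, and 20500 and 21168 against 22640 and 23745 with it. The G3BP1 transgene also differed between the forms, with 630613 and 599602 normalised reads for WT and 851218 and 816242 for the NTF2-deletion form without arsenite; its part in the YBX1 difference was not tested.

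Arsenite-treated rescues were also set against untreated knockout, comparisons that mix both changes. In the authors' deposited table for WT G3BP1, 32 of 42 members were called higher (25.1% of all tested genes) and 3 lower (19.8%); for the NTF2-deletion form it was also 32 (23.3%) and 3 (19.6%). Among highly counted genes (base mean of at least 1000) 59.5% and 57.5% were called higher and 23.0% and 23.4% lower. OGFOD1 stood highest at 1.19 and 1.15, with LARP4 at 1.15 and 1.09, PABPC4 at 1.14 and 1.11 and YBX3 at 1.05 and 1.13 in the authors' deposited tables. TIA1 (-1.04 and -1.06), MOV10 (-1.01 and -0.97) and STAU2 (-0.73 and -0.68) were again the 3 called lower in the authors' deposited tables. CAPRIN1 stood at 0.47 and 0.48, USP10 at 1.12 and 1.03, UBAP2L at 0.26 and 0.28 and YBX1 at 0.86 and 0.99 in the authors' deposited tables. PRRC2A stood at 0.01 and -0.03 and was not called in the authors' deposited tables.

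**Figure D5:**
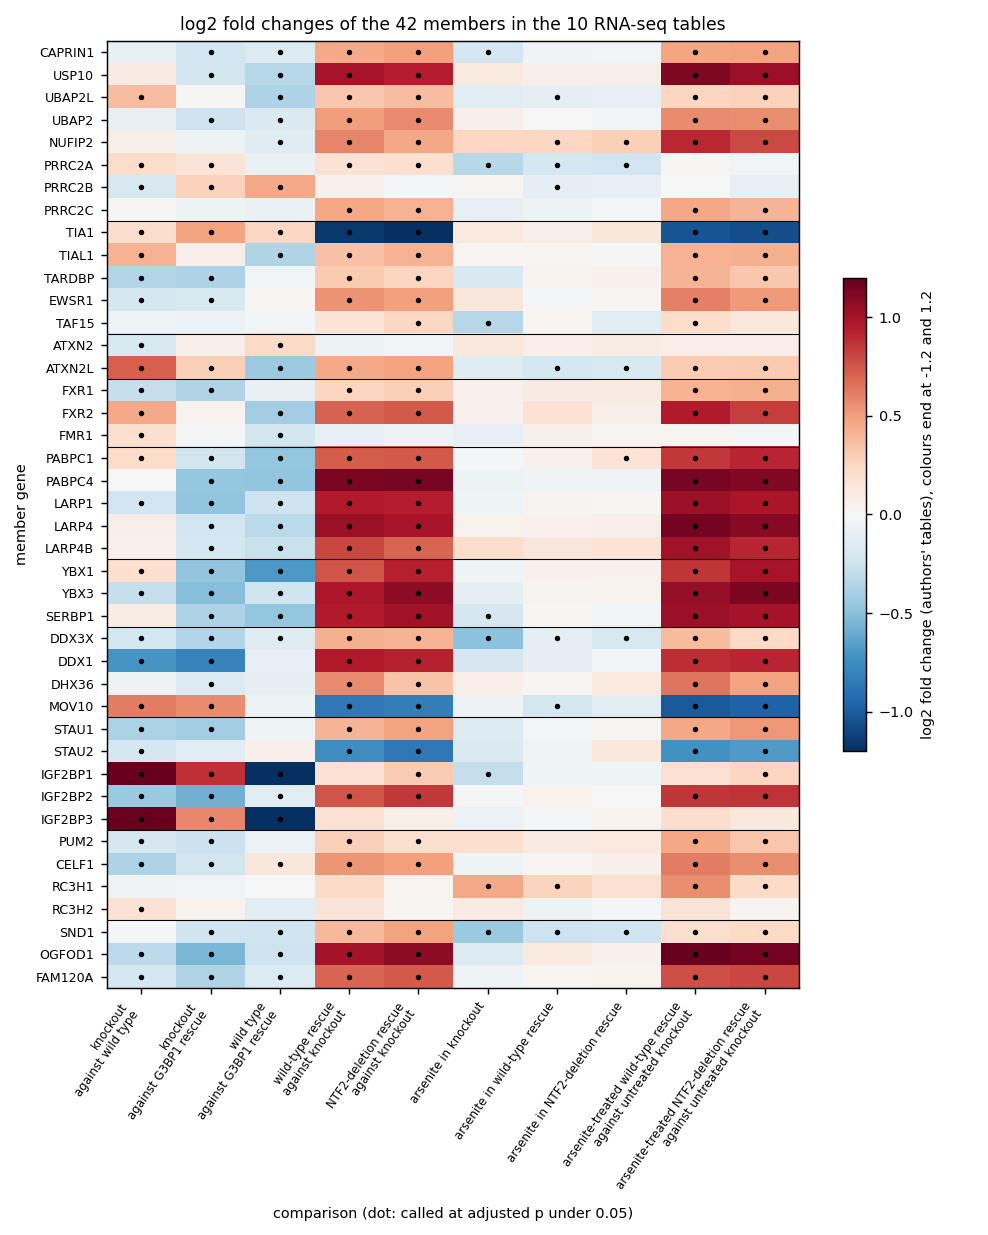
Log2 fold changes of the 42 members (rows, grouped by role) in the 10 RNA-seq tables of the authors (columns), with colours ending at -1.2 and 1.2 and a dot where the member was called. The rescue columns are mostly red (31 to 33 members called higher in the second experiment) with TIA1, MOV10 and STAU2 blue, and the 3 arsenite columns are nearly blank (8, 9 and 6 members called).

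Lists of related genes were read beside the members, as counts and medians with no list test. Of 14 other RNA-binding proteins of stress granules, 12 were called higher and 0 lower in each unstressed rescue, with medians of 0.45 and 0.51 in the authors' deposited tables. Of all tested genes, 23.0% and 22.8% were called higher and 19.1% and 18.7% lower in these 2 rescues. Of genes whose base mean reached 1000, 57.9% and 57.8% were higher and 21.8% and 20.7% lower. CPEB4, a poly(A) regulator, stood at 1.70 and 1.58 and CNBP at 1.16 and 1.23 in the authors' deposited tables. In RIP this list had 8 called higher and 6 lower, with EIF4G1, the initiation scaffold, lowest at -3.56 in the authors' deposited table. There 24.7% of all tested genes were called higher and 31.4% lower, and 60.0% and 28.8% of those whose base mean reached 1000. Processing-body components, the decapping and decay machinery of a neighbouring body, were mostly depleted in RIP like the members, with 3 of 14 called higher and 9 lower and a median of -0.90; TNRC6B stood at -3.29 and LSM1 at 1.46 in the authors' deposited table. In wild-type rescue 7 of them were called higher and 2 lower (TNRC6B at -1.0 and DCP2 at -0.69 in the authors' deposited table).

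The kinases and phosphatase subunits that set eIF2 phosphorylation and genes of granule clearance were also read in the arsenite comparisons. Of the 10 eIF2 genes, 3 were called higher and 3 lower by arsenite in knockout and 1 higher and 0 lower in each rescue; EIF2AK3, the kinase PERK, stood at 0.74 in knockout, and at 0.07 and 0.09 in the rescues, in the authors' deposited tables. Of 11 clearance genes, 3, 4 and 1 were called higher in knockout, wild-type rescue and NTF2-deletion rescue and 0, 1 and 1 lower. Of all tested genes, 8.56%, 8.18% and 2.43% were called higher and 10.9%, 12.2% and 6.14% lower in the same order. HSPB8 (0.73, 0.21 and 0.22) and SQSTM1 (0.44, 0.13 and 0.08), partners of BAG3 in autophagy, were called in knockout and wild-type rescue in the authors' deposited tables. These lists were not tested for a difference between backgrounds.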

How the data were processed

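Poly-A RNA libraries were read from 11 result tables that the authors made with DESeq2 (version 2.11.40.6 per the submitters' processing notes). In each, the authors deposited a base mean (a signal: normalised reads averaged over the libraries of the table), a log2 fold change with its standard error, a Wald score, and a p-value with its Benjamini-Hochberg adjusted p-value. The submitters' processing notes name the aligner STAR, with conflicting versions. Build and annotation of the counts are not given in the sources used here, nor whether counting used strand. Reads of near-identical copies (PABPC1, YBX1, TAF15) and overlapping genes are uncertain. Lines that name no gene (4 per table) were removed. The other 48 libraries of the series were not analysed here.

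The deposited log2 fold changes are shrunken: the width of the normal prior, worked out per RNA-seq table, was 0.26 to 1.21. Whole reads per library were recovered from the deposited base means for 100% of the 38466 genes with reads in the first experiment (6 libraries) and the 38909 in the second (12 libraries), and give the normalised reads, library ratios and depth in the text. RIP reads were not recovered. Libraries so recovered carry no replicate number.

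A member was called at an adjusted p under 0.05 in the authors' test. Differences between tables used the difference of fold changes over the root of the summed squared errors, with normal p-values adjusted over every gene whose base mean reached 10 in each of the 2 tables; intervals are 95%. limma 3.58.1 with voom weights on recovered reads (genes with at least 10 reads in at least 2 libraries) was an alternative chosen after seeing the data. Scripts were tested on simulated data. Members and gene lists were chosen with earlier results of these data known. Named in every table were CAPRIN1, USP10, UBAP2L and YBX1 and the 3 highest and 3 lowest called members; in differences, every called member, or the 3 with the smallest p where none was called; other members illustrate their role group or stand beside a paralog. Normalised reads are not scaled by gene length, so levels of different genes were not compared.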

Additional observations from a re-analysis of the deposited data

Results flagged for a closer look

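The arsenite response of DDX3X differed between wild-type rescue and knockout by 0.37 on the log2 scale, by the test of the difference itself. It fell by 0.49 in knockout and by 0.12 in wild-type rescue in the authors' deposited tables.

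TAF15 differed between the same backgrounds by 0.36, being called lower in knockout (-0.34) and not called in wild-type rescue (0.02) in the authors' deposited tables.

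DDX3X also differed between NTF2-deletion rescue and knockout, by 0.30, a test that reuses the knockout libraries. It was not called there with no filter on low values, nor at an adjusted p under 0.01.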

How the results depend on the processing

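No paired analysis was possible because the libraries recovered from the deposited tables carry no replicate number. Each group had 2 libraries, and the mean squared standardised difference between them was 3.90 to 4.18 for groups of the first experiment and 1.75 to 3.14 for those of the second, where read sampling alone gives about 1.

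Counts below are members called higher and lower. With Wald scores divided by their robust spread, they became 0 and 1 in RIP (9 and 31 as reported), 4 and 1 in knockout against wild type (13 and 16), 2 and 12 against the first rescue (7 and 24), 1 and 8 when wild type was set against it (4 and 24), 8 and 1 in wild-type rescue (31 and 3), 10 and 1 in NTF2-deletion rescue (33 and 3), 9 and 1 in arsenite-treated wild-type rescue and 9 and 0 in arsenite-treated NTF2-deletion rescue (32 and 3 each). Lower calls by arsenite became 4 in knockout (7) and 3 in wild-type rescue (7). Requiring a log2 change of at least 0.5 left 3 higher in RIP, 4 and 1 in knockout against wild type, 3 and 4 against the first rescue, 0 and 3 for wild type against it, 19, 15, 20 and 19 higher in the 4 rescue tables, and 0 and 0 for arsenite in each background. At an adjusted p under 0.01, arsenite called 4 lower in knockout and 3 in wild-type rescue.

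Subtracting the median of genes whose base mean reached 100 gave 5 lower in wild-type rescue and in both arsenite-treated rescues. It gave 2 higher for arsenite in knockout. It turned the sign of 1 called member in wild-type rescue (PRRC2A) and 2 in arsenite-treated wild-type rescue (TAF15 and SND1). Over all genes, the share of calls that were higher then moved from 55.8% to 40.1% and from 54.3% to 40.6% in the arsenite-treated rescues. By limma, arsenite in knockout had 4 and 14 (1 and 7) and arsenite in wild-type rescue 4 lower. Leaving out 1 library at a time in limma gave 1 to 4 and 13 to 14 for arsenite in knockout, 3 to 3 lower in wild-type rescue, 2 to 4 higher and 3 to 5 lower in NTF2-deletion rescue, and 4 to 5 lower in arsenite-treated NTF2-deletion rescue.

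Differences of the arsenite response from knockout had 8 members by limma for each rescue (2 and 1 as reported), 2 to 8 and 4 to 9 with 1 library left out; for NTF2-deletion rescue 0 were called with no filter on low genes and 0 at an adjusted p under 0.01. Between the forms limma called 2 without and 3 with arsenite (0 each as reported), 0 to 1 and 1 to 2 with 1 library left out. The cause of these changes was not tested.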
